A study of Mus musculus with 8 samples.

Results

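The 8 genes described here make, move, degrade or sense prostaglandins: Pla2g4a, Ptgs1, Ptgs2, Ptges, Ptgis, Slco2a1, Hpgd and Ptger4. They were chosen by name as members of 1 pathway after earlier results of these same data had shown their levels, so the measured values had a part in the choice, and the levels below are a description. Each of the 8 matched 1 of the 27775 gene rows in each count table. The tables hold single-cell RNA-seq counts of unique molecular identifiers (UMIs, tags that count each captured mRNA molecule once) from pancreatic ductal adenocarcinoma of untreated KPC mice, 1 medium size and 1 large tumor. The KPC alleles of both groups included LSL-Trp53R172H/+ and Pdx-1-Cre, so the mutant allele is switched on by Cre only where the Pdx1 promoter has been active, in the pancreatic lineage and parts of the foregut, while fibroblasts, macrophages and vessels of the tumor keep it unrecombined. The age of the mice was not given in the sources used here. Each tumor was dissociated with a Miltenyi kit and run as 4 technical replicates on the 10x Genomics Chromium 3′ platform, and the deposited table of each tumor pools them. With 1 tumor of each size, and cells that are not replicates, no test was possible, and a difference between the tumors cannot be told apart from one between mice or libraries.

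Prostaglandins are short-lived lipid signals. A phospholipase such as cytosolic phospholipase A2 (Pla2g4a) frees arachidonic acid from membranes, a cyclooxygenase (Ptgs1 or the inducible Ptgs2) turns it into prostaglandin H2, and terminal synthases make the final products, prostaglandin E2 by Ptges and prostacyclin by Ptgis. The transporter Slco2a1 takes prostaglandins up into cells, the dehydrogenase Hpgd inactivates them there, and receptors such as Ptger4 carry the signal of prostaglandin E2. In carcinomas, Ptgs2 is the gene of the pathway best known for high expression, and prostaglandin E2 is known to act on both tumor and immune cells.

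The medium tumor gave 2812 cells with a median of 5456.5 UMIs, and the large tumor 1533 cells with a median of 1037 UMIs. Levels are given as CPM, the UMIs of a gene per 1000000 UMIs of a group of cells, with exact 95% Poisson intervals, and shares of cells carry exact 95% binomial intervals (Clopper-Pearson). Both cover counting error only. For all cells together, a count of 3 UMIs, the limit that a count of 0 allows, corresponded to 0.148 CPM in the medium and 1.34 CPM in the large tumor. The 14 clusters of the medium and 11 of the large tumor were made with all pathway genes left out, so that no member defined a cluster, and were named from marker genes. In the medium tumor, 8 clusters were epithelial-like (2325 cells), 2 monocyte/macrophage-like (238 cells), 1 fibroblast-like (67 cells) and 1 endothelial-like (39 cells), with 2 unnamed: cluster 10 (73 cells) held 6 of 6 mesothelial and 6 of 10 fibroblast markers, and cluster 11 (70 cells) 10 of 11 epithelial and 8 of 11 monocyte/macrophage markers. In the large tumor, 7 clusters were epithelial-like (937 cells) and 1 each monocyte/macrophage-like (253 cells), fibroblast-like (50 cells) and endothelial-like (11 cells). Its cluster 1 (282 cells) stayed unnamed, with 2 of 11 epithelial markers, 0 of 10 fibroblast markers and 6 of 8 mesenchymal markers. The name epithelial-like was also weak for cluster 8 of the medium tumor, which met 3 of 11 epithelial markers, the fewest that a name needed, and 7 of 8 mesenchymal markers, so the class and cluster comparisons below are also given without it where it changed them. The 2 tables shared 5 cell barcodes.

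The steps of the pathway were spread over different cells. In the medium tumor the highest Ptgs2 and Pla2g4a levels lay in cluster 8, those of Ptgs1 in monocyte/macrophage-like cells, those of Ptgis in cluster 10 and in fibroblast-like cells, and those of Slco2a1 in endothelial-like cells and in epithelial-like cluster 6. Ptges was highest in fibroblast-like cells and in epithelial-like cluster 5. Hpgd and Ptger4 were the least counted members, with 66 and 237 UMIs among all cells of the medium tumor.

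**Figure D1:**
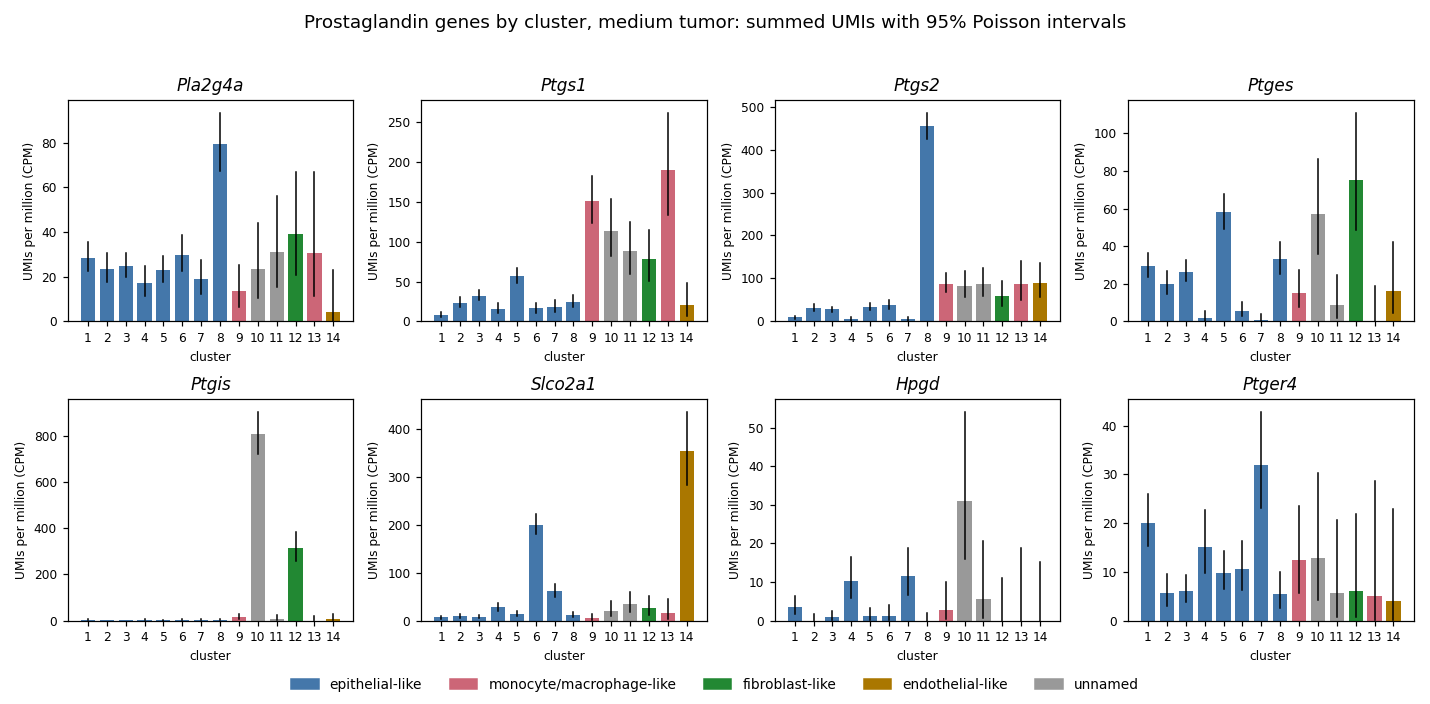
Level of the 8 genes in the 14 clusters of the medium tumor, as CPM on linear axes that start at 0 and differ between panels. Bars are summed UMIs of a cluster, lines their 95% Poisson intervals, and colors the name of the cluster. Ptgs2 stood at 454 CPM in cluster 8 and at 90.3 CPM or less elsewhere, and Ptgis at 809 CPM in cluster 10 and 316 CPM in cluster 12.

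Pla2g4a and Ptgs2, the releasing enzyme and the inducible cyclooxygenase, are neighbors on chromosome 1. On GRCm38 (GENCODE M21), Pla2g4a lies on the minus strand at chr1:149829618-149961290 and Ptgs2 on the plus strand at chr1:150100031-150108227, so their annotated 5′ ends face each other across 138740 bases that hold 3 annotated genes, 0 of them protein-coding. Slco2a1 lies on the plus strand at chr9:102988712-103096002. Its window printed below, before a RefSeq start, lies inside this span, downstream of the annotated 5′ end. The 250 bases before the RefSeq start (GRCm38.p6) are shown for these 3 genes because their epithelial-like levels peaked in single clusters, those of Ptgs2 and Pla2g4a in the same one. Those of Ptges and Ptgs1 also peaked in a single cluster, cluster 5, and their windows are not printed. Capitals mark matches, on either strand, to the letters TATAAA of the TATA box, the letters GGGCGG of the GC box, the letters CCAAT of the box of that name, the letters TGACG of the CRE core, the letters TGANTCA of the AP-1 site or the letters CACGTG of the E-box, and matches of different motifs did not overlap.
Ptgs2, chr1:150099781-150100030, plus strand: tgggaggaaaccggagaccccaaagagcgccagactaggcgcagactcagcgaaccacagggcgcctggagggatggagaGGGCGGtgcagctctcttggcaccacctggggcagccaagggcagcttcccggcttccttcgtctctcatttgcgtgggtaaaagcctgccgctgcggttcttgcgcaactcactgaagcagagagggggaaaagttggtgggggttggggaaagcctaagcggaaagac
Pla2g4a, chr1:149961291-149961540, minus strand: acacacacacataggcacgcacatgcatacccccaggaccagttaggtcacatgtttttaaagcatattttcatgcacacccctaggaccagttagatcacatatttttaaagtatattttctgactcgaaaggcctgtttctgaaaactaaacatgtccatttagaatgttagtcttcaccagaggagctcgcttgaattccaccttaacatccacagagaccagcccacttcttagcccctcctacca
Slco2a1, chr9:103008237-103008486, plus strand: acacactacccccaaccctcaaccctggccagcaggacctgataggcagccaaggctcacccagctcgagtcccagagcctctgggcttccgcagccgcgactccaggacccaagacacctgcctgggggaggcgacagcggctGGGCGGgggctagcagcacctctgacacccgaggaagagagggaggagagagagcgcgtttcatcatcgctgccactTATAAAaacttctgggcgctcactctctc
The window of Ptgs2 held 1 GC box, beginning 170 bases before the start, and 13 CG dinucleotides at 61.6% G and C. That of Pla2g4a held 0 of the 6 motifs and 3 CG dinucleotides at 43.2% G and C, and a downstream second start of Pla2g4a in the same table (chr1:149922440-149922689) held 1 TATA box. The window of Slco2a1 held a GC box and, 29 bases before the start, a TATA box, with 12 CG dinucleotides at 63.2% G and C. Of the 32851 promoters in the table, 32.7% held the GC box, 12.4% the TATA box, 33.8% the CCAAT box, 17.8% the CRE core, 6.75% the AP-1 site and 6.02% the E-box in the same window, and the median promoter had 6 CG dinucleotides and 52.4% G and C. These are matches of letters only. A promoter was matched for 7 of the 8 members, with Ptgis the exception.

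Pla2g4a, which starts the pathway by freeing arachidonic acid, was counted at 79.5 CPM (95% interval 67.2 to 93.5) in cluster 8 of the medium tumor, from 147 UMIs. The other 7 epithelial-like clusters lay between 17.2 and 29.8 CPM and overlapped one another in their intervals. Against all other epithelial-like cells, at 24.4 CPM, the level in cluster 8 was 3.27 times as high (2.68 to 3.96). At a finer clustering (resolution 1.2) the cells of cluster 8 no longer met the naming rule for epithelial-like cells, and the epithelial-like cluster then highest in Inhba, with 238 cells, had 29.8 CPM of Pla2g4a, 1.26 times the others (0.928 to 1.68). In the other classes Pla2g4a stood at 39.2 CPM in fibroblast-like cells (20.9 to 67.0), 17.3 CPM in monocyte/macrophage-like cells (9.92 to 28.2) and 4.11 CPM, 1 UMI, in endothelial-like cells. The endothelial-like value was the lowest of the 14 clusters, and its interval reached 22.9 CPM.

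Ptgs1, the constitutive cyclooxygenase, was highest in the clusters with macrophage markers. It stood at 151 CPM (124 to 182) in cluster 9 and at 190 CPM (134 to 262) in cluster 13, the cycling one of the pair, and these intervals overlapped. Together the monocyte/macrophage-like cells had 159 CPM against 26.1 CPM in epithelial-like cells, 6.10 times as much (5.03 to 7.36). Cluster 10 followed at 114 CPM, cluster 11 at 88.2 CPM and fibroblast-like cells at 78.3 CPM, while endothelial-like cells had 20.5 CPM from 5 UMIs. A Ptgs1 UMI was found in 98 of 238 monocyte/macrophage-like cells (41.2%, 34.9 to 47.7) and in 332 of 2325 epithelial-like cells (14.3%, 12.9 to 15.8), although the former were shallower; thinned to 2500 UMIs a cell, the shares were 34.0% and 6.37%. Among epithelial-like clusters Ptgs1 ranged from 7.84 CPM (4.97 to 11.8) in cluster 1, which carried gastric pit markers, to 57.3 CPM (48.7 to 67.0) in cluster 5, led by Yap1, Dcun1d5, Birc2 and Cldn18.

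Ptgs2, the inducible cyclooxygenase, set cluster 8 apart from every other cluster of the medium tumor. There it was counted at 454 CPM (424 to 486), 839 of the 1404 Ptgs2 UMIs in the tumor, against 23.4 CPM in the other epithelial-like cells, a ratio of 19.4 (17.2 to 22.0). Cluster 8 held 226 cells and was led by Inhba, a subunit of activin, Bmp2, a bone morphogenetic protein, the mechanosensitive channel gene Piezo2 and the metalloproteinase Mmp10, and Ptgs2 itself ranked 6th among its leading genes although it took no part in the clustering.
The remaining epithelial-like clusters formed a lower order: 38.7 CPM in cluster 6, 34.3 in cluster 5, 31.7 in cluster 2 and 28.4 in cluster 3, whose intervals overlapped, then 9.55 in cluster 1 and 5.08 in clusters 4 and 7. Outside the epithelial-like cells the levels were close together, 60.2 CPM (36.8 to 93.0) in fibroblast-like cells, 87.8 (69.8 to 109) in monocyte/macrophage-like cells and 90.3 (56.6 to 137) in endothelial-like cells, though in the last 22 UMIs came from 4 cells and 11 of them from 1 cell.

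The Ptgs2 level of cluster 8 came from many cells. A UMI was found in 156 of 226 cells (69.0%, 62.6 to 75.0), of which 72 had 5 or more, 24 had 10 or more, and the highest had 33. The 10 cells with the most Ptgs2 held 23.0% of its UMIs there, and without the 10 cells of the tumor with the most Ptgs2 the ratio of cluster 8 to the other epithelial-like cells was 17.4. For comparison, clusters 4 and 7 had a Ptgs2 UMI in 2.13% and 2.95% of cells at median depths of 4377 and 5255 UMIs, beside a median of 6490 UMIs in cluster 8; thinned to 2500 UMIs the shares were 50.4% in cluster 8, 0.355% in cluster 4 and 1.27% in cluster 7. Cluster 8 met 0 of 10 fibroblast and 0 of 11 monocyte/macrophage markers. Summed fibroblast markers were at 35.7 CPM in cluster 8 against 14348 CPM in fibroblast-like cells. They were counted as 26 UMIs of Col3a1, 13 of Col1a2, 11 of Dcn and 1 to 4 of each of the others but Pdgfra, 1 of the 10, which was at 0. Summed monocyte/macrophage markers were at 512 CPM, within the 250 to 584 CPM of the other epithelial-like clusters. The 7 immediate early genes listed as signs of dissociation summed to 3243 CPM in cluster 8, inside the range of 1855 CPM (cluster 4) to 10611 CPM (cluster 7) over the 14 clusters. At resolution 1.2, where these cells had lost the epithelial-like name, the epithelial-like cluster then highest in Inhba had 38.7 CPM of Ptgs2, 1.80 times the others (1.37 to 2.34).

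**Figure D2:**
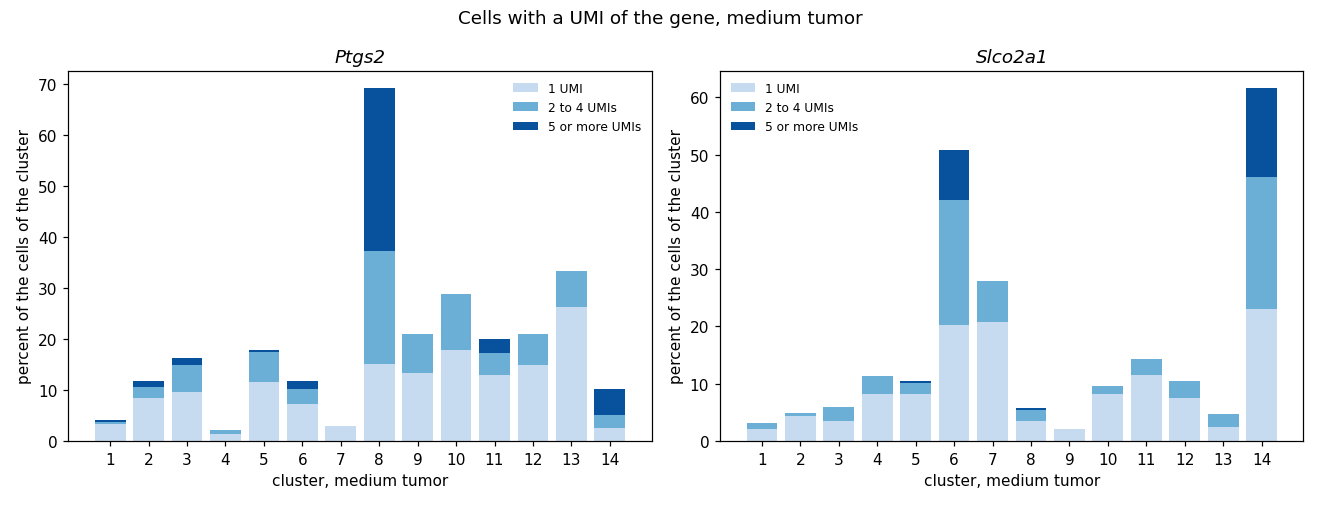
Share of cells in each cluster of the medium tumor, in percent, with 1, 2 to 4, or 5 or more UMIs of Ptgs2 (left) and Slco2a1 (right). In cluster 8, 69.0% of cells had a Ptgs2 UMI, and in clusters 6 and 14, 50.8% and 61.5% had a Slco2a1 UMI.

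Pla2g4a and Ptgs2 were also seen in the same cells of cluster 8. A Pla2g4a UMI was present in 77 of the 156 cells with Ptgs2 (49.4%) and in 24 of the 70 without (34.3%). The cells with Ptgs2 were the deeper ones, with a median of 6740 against 5808 UMIs, and the part of depth in this difference was not tested. Of the other members, Ptges was seen in 16.7% of the cells with Ptgs2 and 18.6% of those without, Ptgs1 in 14.7% and 15.7%, and Slco2a1 in 5.77% and 5.71%. In cluster 1 of the large tumor, the one with mesenchymal markers, a Pla2g4a UMI was present in 9.09% of the 44 cells with Ptgs2 and in 8.40% of the 238 without, at median depths of 1760 and 1360 UMIs. There the shares were 2.27% and 9.24% for Ptges, 0% and 3.36% for Ptgs1, and 4.55% and 2.52% for Slco2a1, and by the limit of 3 counts the 0 of 44 allows a share of cells with a UMI of up to 6.82%.

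Ptges, the inducible prostaglandin E2 synthase, was shared between carcinoma and stroma. Fibroblast-like cells had 75.3 CPM (48.7 to 111), cluster 10 had 56.9 (35.7 to 86.1) and epithelial-like cluster 5 had 58.0 (49.3 to 67.7), 2.97 times the level of the other epithelial-like cells (2.44 to 3.62). Clusters 8, 1, 3 and 2 followed with 33.0, 29.3, 26.4 and 20.1 CPM. Among the remaining epithelial-like clusters, cluster 6 had 5.52 CPM, cluster 4 had 1.91 CPM from 3 UMIs, and cluster 7 had 0.726 CPM from 1 UMI in 237 cells. Monocyte/macrophage-like cells had 11.9 CPM, 11 UMIs in 5 cells, and their cycling cluster 13 had 0 UMIs, which allows up to 15.4 CPM. In cluster 5 Ptges and Ptgs1 were thus both at their highest epithelial-like level, and Ptgs2 was at 34.3 CPM.

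Ptgis, prostacyclin synthase, was concentrated in clusters 10 and 12. The unnamed cluster 10 met 6 of 6 mesothelial markers, at 2048 CPM in sum, and 6 of 10 fibroblast markers. The fibroblast-like cluster 12 met 1 of 6 mesothelial markers, at 244 CPM in sum, and 8 of 10 fibroblast markers. Ptgis reached 809 CPM (722 to 904) in cluster 10, with a UMI in 66 of 73 cells (90.4%, 81.2 to 96.1), and 316 CPM (259 to 383) in fibroblast-like cells, with a UMI in 35 of 67 (52.2%, 39.7 to 64.6). Median depths were alike, 4224 and 4361 UMIs a cell, and the intervals of the 2 levels did not overlap. Epithelial-like cells had 2.21 CPM (1.58 to 3.02), a UMI in 1.38% of cells, monocyte/macrophage-like cells 11.9 CPM with 7 of 11 UMIs in 1 cell, and endothelial-like cells 8.21 CPM from 2 UMIs. The fibroblast-like level was 143 times the epithelial-like level (98.4 to 211). Prostacyclin synthase is known from vessel walls, both endothelium and smooth muscle. The endothelial-like cluster, which met 11 of 11 endothelial markers, held 2 Ptgis UMIs in its 39 cells. The fibroblast-like cluster 12 also met 3 of 7 smooth muscle and pericyte markers, at 804 CPM in sum against 85.3 CPM in cluster 10, with Tagln and Acta2 among its leading genes, and the part of such cells in its Ptgis level was not tested.

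Slco2a1, the prostaglandin transporter, was highest in the endothelial-like cluster, at 353 CPM (282 to 436), with a UMI in 24 of 39 cells (61.5%, 44.6 to 76.6). This cluster 14 met 3 of 11 epithelial markers as well, at 4217 CPM in sum, beside 5918 to 16673 CPM in the epithelial-like clusters, and their part in its Slco2a1 level was not tested. Among carcinoma cells it was concentrated in cluster 6, at 200 CPM (180 to 222) from 362 UMIs, 12.6 times the level of the other epithelial-like cells (10.7 to 14.9). Cluster 6 held 238 cells led by Krt17, a basal keratin, the claudin Cldn4, Slco2a1 itself and Ctla2a, a cathepsin inhibitor. Cluster 7 came next with 62.4 CPM (49.9 to 77.1) and cluster 4 with 28.0 (20.3 to 37.5), and the other 5 epithelial-like clusters lay between 6.82 and 14.6 CPM. A Slco2a1 UMI was found in 121 of the 238 cells of cluster 6 (50.8%, 44.3 to 57.4), and in 2.52% of monocyte/macrophage-like cells, whose level was 7.59 CPM; thinned to 2500 UMIs, the shares were 28.2% and 1.68%. Cluster 6 met 0 of 11 endothelial markers, which summed to 63.0 CPM there, inside the 27.6 to 92.9 CPM of the other epithelial-like clusters and below the 5478 CPM of cluster 14. Of these UMIs, 76 were of Flt1, 14 of Egfl7 and 8 of Pecam1, with 5 of Plvap, 4 each of Cdh5 and Eng, 2 of Esam and 1 of Kdr, while 3 of the 11 markers, Tie1, Emcn and Cldn5, were at 0.

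Hpgd, which breaks prostaglandins down, was sparse. Of its 66 UMIs in the medium tumor, 16 fell in cluster 7 (11.6 CPM, 6.64 to 18.9), 16 in cluster 4 (10.2 CPM, 5.81 to 16.5), 12 in cluster 10 (31.0 CPM, 16.0 to 54.2) and 10 in cluster 1 (3.41 CPM). Clusters 7 and 4 each met 5 of 5 markers of the list headed by Dmbt1 and Sftpd, genes of secreted defense proteins. The other epithelial-like clusters had at most 1.10 CPM, and clusters 2 and 8 had 0 UMIs, which allows up to 1.28 and 1.62 CPM. Hpgd was thus undetected in cluster 8, the one with the highest Ptgs2. The 1.62 CPM this allows lies above the level of those at 1.10 CPM or less, so cluster 8 could not be told apart from them. The clusters with the most epithelial Hpgd, 4 and 7, had the least Ptgs2 and Ptges.

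Ptger4, a receptor for prostaglandin E2, was counted in 214 cells of the medium tumor, 195 of them with 1 UMI. It was highest in cluster 7, at 31.9 CPM (23.2 to 42.9), followed by cluster 1 at 20.1 (15.3 to 25.9), cluster 4 at 15.2 (9.77 to 22.7), cluster 6 at 10.5 and cluster 5 at 9.85, and then clusters 3, 2 and 8 at 6.09, 5.57 and 5.41 CPM. Neighbors in this order overlapped in their intervals, and the ends did not. The stromal and immune levels, 12.4 CPM in cluster 9, 6.02 in fibroblast-like and 4.11 in endothelial-like cells, came from 9, 2 and 1 UMIs. Epithelial-like clusters 2, 3, 5, 6 and 8, at 5.41 to 10.5 CPM, lay within the 4.11 to 12.9 CPM of the 6 other clusters, and for these the part of free RNA was not tested. A Ptger4 UMI was found in 16.5% of cells of cluster 7 and 11.6% of cluster 1, against 4.11% of all cells that were not epithelial-like; thinned to 2500 UMIs, the shares were 7.59%, 6.44% and 2.26%.

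Over the medium tumor as a whole, 7 of the 8 genes reached the 200 UMIs asked of a gene in this comparison, all but Hpgd. Of these, 0 were over 2 times higher in epithelial-like cells than in all other cells, beside 11.1% of the 7838 genes that reached 200 UMIs. In the other direction, Ptgs1 at a ratio of 0.231 (0.198 to 0.270) and Ptgis at 0.0114 (0.00804 to 0.0158) were over 2 times lower in epithelial-like cells, 2 of 7 beside 7.92% of all genes. The median log2 ratio was -0.31 over the 7 genes and 0.19 over all genes. The other 5 genes lay within a factor of 2, Slco2a1 at 0.628 (0.516 to 0.769), Ptgs2 at 0.810 (0.694 to 0.951), Ptges at 0.872 (0.671 to 1.15), and Pla2g4a and Ptger4 both at 1.34, with lower bounds of 1.00 and 0.848. For Ptgs2 this whole-class value hides cluster 8, which alone held 839 of its 1218 epithelial-like UMIs. Without cluster 8 the log2 ratio of Ptgs2 went from -0.31 to -1.84, and at resolution 1.2, where these cells were no longer epithelial-like, to -3.42, so that 3 members were then over 2 times lower. Without cluster 8 the epithelial-like level of Pla2g4a was 24.4 CPM, beside 22.4 CPM in all other cells. At resolution 1.2 the directions of Pla2g4a and Slco2a1 turned, and that of Slco2a1 also turned with classes set cell by cell.

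Between the 8 epithelial-like clusters of the medium tumor the spread was wider. All 6 genes that reached 200 UMIs there differed over 2 times between their highest and lowest cluster, but so did 67.2% of the 7312 genes compared. Over 10 times apart were 3 of the 6, Ptgs2 (79.5 times, clusters 8 and 4), Ptges (40.2 times, clusters 5 and 7) and Slco2a1 (28.0 times, clusters 6 and 1), beside 7.08% of genes. Ptgs1, Ptger4 and Pla2g4a were 7.04, 5.49 and 4.50 times apart, and the median was 17.5 over the 6 genes and 2.35 over all genes. Without cluster 8, 2 of the 6 were over 10 times apart, Ptges and Slco2a1, beside 5.07% of the 6940 genes then compared, and 5 of the 6 over 2 times, beside 59.4%. Ptgs2 was then 6.86 times apart, from 38.7 CPM in cluster 6 to 5.08 CPM in cluster 4, and Pla2g4a 1.71 times, from 29.8 to 17.2 CPM, while Ptger4 was at 5.45 times. Each ratio has 1 UMI added to both sums, and none was tested.

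The genes whose levels over the 14 clusters of the medium tumor were most like those of each member are given as a description, since the clusters come from 1 tumor. Pearson's r of log2(CPM + 10) was 0.903 for Ptgs2 with Zfp638, 0.896 with Inhba and 0.877 with Olr1. It was 0.913 for Ptgs1 with Metrnl, 0.984 for Ptgis with the complement protease gene C1s1 and 0.970 with the collagen gene Col3a1, 0.866 for Ptges with Antxr1, 0.948 for Slco2a1 with Tbc1d1, 0.840 for Pla2g4a with Vmp1 and 0.832 for Ptger4 with Adamtsl4. Among the members themselves, r was highest for Ptges with Ptgis (0.569), Ptgs1 with Ptgs2 (0.456), Ptgs1 with Ptgis (0.413) and Pla2g4a with Ptgs2 (0.404), and lowest for Ptger4 with Ptgs2 (-0.67) and Slco2a1 with Pla2g4a (-0.43).

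In the large tumor the members rested on far fewer counts, from 14 UMIs for Hpgd to 177 for Ptgs2. Ptgs2 was highest in monocyte/macrophage-like cells, at 316 CPM (242 to 405), with a UMI in 40 of 253 cells (15.8%, 11.5 to 20.9). This cluster 2 also met 2 of 7 granulocyte markers, which summed to 8406 CPM there against 390 to 1550 CPM in the other clusters of the tumor. The UMIs were mostly of S100a8 (752) and S100a9 (848), which monocytes are also known to express, with 23 of Il1r2, 14 of Retnlg, 10 of Mmp9, 2 of Csf3r and 0 of Cxcr2. Ptgs2 stood at 349 CPM (266 to 450) in the 221 cells with no UMI of the last 5 and at 364 CPM (266 to 487) in the 165 cells with no UMI of any of the 7. Without the 10 cells of the tumor with the most Ptgs2 UMIs the level there was 219 CPM, 7.97 times the epithelial-like one. Fibroblast-like cells followed at 205 CPM (112 to 345) from 14 UMIs, then the unnamed cluster 1 with its mesenchymal markers at 120 CPM (90.3 to 156) from 55 UMIs in 44 of 282 cells. Epithelial-like cells had 30 CPM (21.9 to 40.1), and the monocyte/macrophage-like level was 10.5 times theirs (7.06 to 15.8). The ratio was 6.19 where a coarser clustering (resolution 0.4) counted cluster 1 as epithelial-like. It was also 6.19 with pathway genes kept in the clustering, 6.26 with 20 principal components and 6.74 with classes set cell by cell. At resolution 1.2 it was 10.5. The macrophage-like cells were the shallowest cluster, with a median of 688 UMIs beside 1444 in cluster 1.

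**Figure D3:**
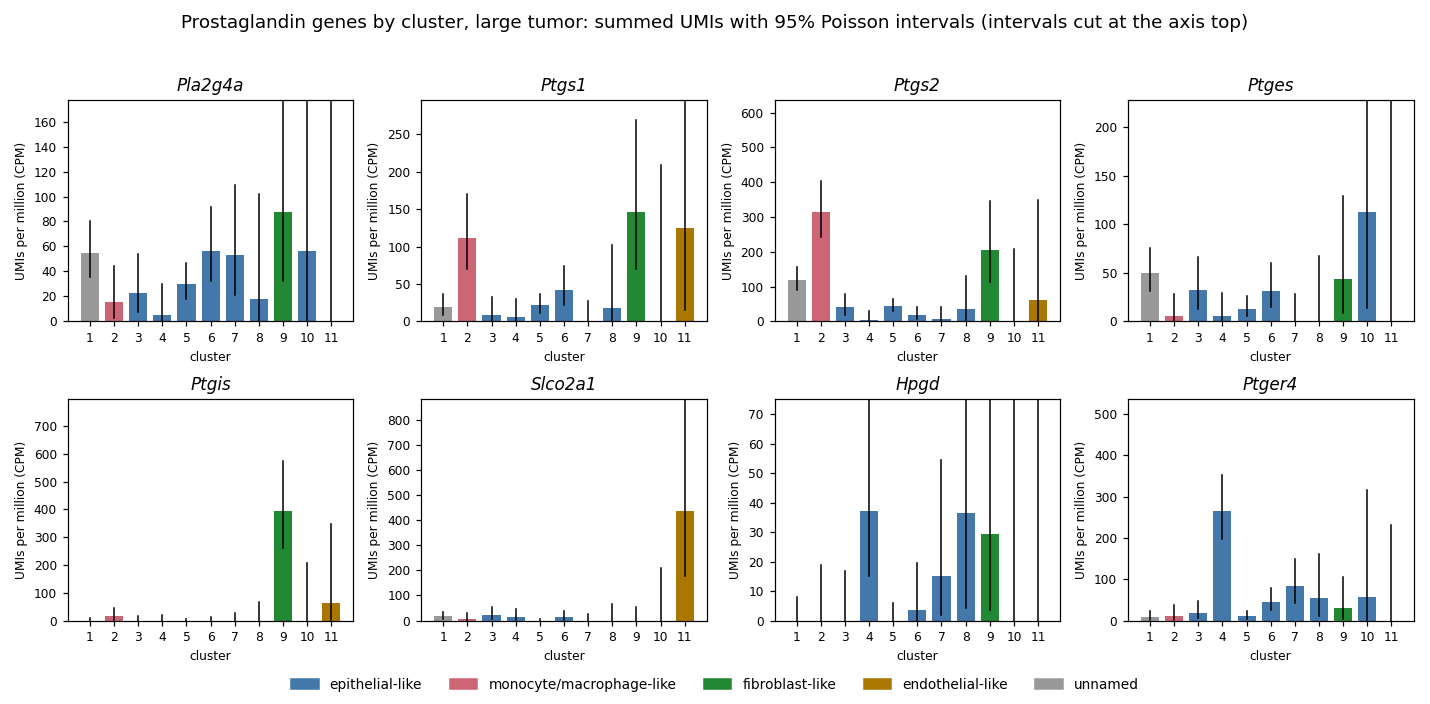
Level of the 8 genes in the 11 clusters of the large tumor, as CPM on linear axes that start at 0 and differ between panels. Bars are summed UMIs, lines 95% Poisson intervals, and colors the name of the cluster. Some intervals run past the axis, among them those of the small clusters 10 and 11. So do those of clusters 4, 8 and 9 for Hpgd and of cluster 9 for Pla2g4a. Ptgs2 stood at 316 CPM in cluster 2, Ptgis at 396 CPM in cluster 9 and Ptger4 at 266 CPM in cluster 4.

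Ptgis had 27 of its 31 UMIs in the large tumor in fibroblast-like cells (396 CPM, 261 to 576), 3 in monocyte/macrophage-like cells, 1 in endothelial-like cells and 0 in 937 epithelial-like cells, which allows up to 2.00 CPM. Without the 10 cells highest in Ptgis the fibroblast-like level was 117 CPM from 6 UMIs. Slco2a1 was highest in endothelial-like cells at 438 CPM (176 to 903), from 7 UMIs in 4 of 11 cells. Ptgs1 stood at 147 CPM (70.4 to 270) in fibroblast-like and 112 CPM (70.3 to 170) in monocyte/macrophage-like cells, against 19.3 CPM (12.9 to 27.8) in epithelial-like cells. Ptges and Pla2g4a had 50.1 CPM (31.8 to 75.2) and 54.5 CPM (35.3 to 80.4) in cluster 1, and Pla2g4a had 56.2 CPM (32.1 to 91.3) in epithelial-like cluster 6. Its highest level was 88.0 CPM (32.3 to 192) in fibroblast-like cells, from 6 UMIs.

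Among the epithelial-like clusters of the large tumor, Ptger4 and Hpgd were highest in cluster 4, one with intestinal markers. Ptger4 reached 266 CPM there, from 50 UMIs in 47 of 203 cells with 2 at most in a cell, 8.96 times the level of the other epithelial-like cells (5.77 to 14). Cluster 4 met 6 of 7 enterocyte markers and was led by Papss2, Guca2b and Fabp1. It was followed by cluster 7 at 82.9 CPM from 11 UMIs, cluster 10 at 56.7 CPM from 1 UMI, cluster 8 at 54.7 CPM from 3 UMIs and cluster 6 at 45.7 CPM from 13 UMIs, with intervals that overlapped. Hpgd, with 12 UMIs in epithelial-like cells, had 7 of them in cluster 4 (37.3 CPM) and 2 in cluster 8 (36.5 CPM), which met 6 of 6 goblet and 5 of 7 enterocyte markers, while Ptgs2 had 1 UMI in cluster 4 (5.32 CPM). The source of the cells with intestinal markers was not tested.

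None of the 8 genes reached 200 UMIs in the epithelial-like cells of the large tumor, so none entered the comparison between its clusters. With 20 UMIs asked, 5 entered and all 5 were over 2 times apart, beside 96.6% of genes, a share at which the count says little at this depth.

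In epithelial-like cells as a class, 6 genes reached 200 UMIs over both tumors. Ptger4 was over 2 times higher in the large tumor, 59.3 against 12 CPM, a ratio of 4.94 (3.82 to 6.35), 1 of 6 beside 5.95% of genes. Slco2a1, 8.0 against 34.3 CPM (0.234, 0.120 to 0.411), and Ptgs2, 30 against 67.4 CPM (0.445, 0.323 to 0.599), were over 2 times lower, 2 of 6 beside 18.0% of genes. Without cluster 6 of the medium tumor, which held 362 of its 619 epithelial-like Slco2a1 UMIs, the log2 ratio of Slco2a1 went from -1.99 to -0.87, short of 2-fold. The Ptgs2 difference depended on which clusters were counted in. Its log2 ratio went from -1.14 to 0.39 without cluster 8 of the medium tumor, to -0.39 with the mesenchymal-marker cluster 1 of the large tumor added, and to -0.98 without clusters 4 and 8 of the large tumor, each short of 2-fold lower. Pla2g4a (1.09, 0.796 to 1.46), Ptges (0.710, 0.463 to 1.05) and Ptgs1 (0.740, 0.490 to 1.08) had intervals that held 1. The direction of Ptges turned where cluster 1 of the large tumor was counted in, with a log2 ratio of 0.04. The median log2 ratio was -0.42 over the 6 genes and -0.15 over all genes, which TMM scaling moved to -0.07. Hpgd, under the filter, stood at 8.0 against 2.77 CPM (2.89, 1.40 to 5.51). Both higher values rested in part on the clusters of the large tumor with intestinal markers: without its clusters 4 and 8 the log2 ratio of Ptger4 went from 2.31 to 1.29 and that of Hpgd from 1.62 to 0.17.

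Groups with like markers allowed a closer comparison of the tumors than the class did. In the clusters with mesenchymal markers, cluster 8 of the medium and cluster 1 of the large tumor, Ptgs2 was 454 against 120 CPM, a ratio of large to medium of 0.264 (0.197 to 0.347), while Pla2g4a (0.685, 0.429 to 1.05) and Ptges (1.52, 0.897 to 2.49) had intervals that held 1. In monocyte/macrophage-like cells Ptgs2 stood the other way, 316 against 87.8 CPM, a ratio of 3.60 (2.54 to 5.07). Granulocyte markers differed with it, at 8406 CPM in the large tumor against 348 and 195 CPM in clusters 9 and 13 of the medium tumor, and without the cells that held a UMI of any of them the ratio was 4.22 (2.73 to 6.53). In fibroblast-like cells the Ptgs2 ratio was 3.41 (1.59 to 7.10). These fibroblast-like groups differed in other markers, with smooth muscle and pericyte markers at 804 CPM (3 of 7 met) in the medium and 29.3 CPM (0 of 7) in the large tumor and cycling markers at 247 CPM (1 of 8) and 792 CPM (4 of 8). The 7 immediate early genes summed to 3823 CPM in the medium and 5400 CPM in the large one. The part of these differences was not tested. In monocyte/macrophage-like cells those 7 genes were lower in the large tumor, at 1937 CPM against 3563 and 3045 CPM in clusters 9 and 13. The ratio of Ptgs1 in monocyte/macrophage-like cells was 0.704 (0.428 to 1.11). In the clusters with gastric pit markers Ptger4 was 2.27 times (1.14 to 4.19), Pla2g4a 1.96 times (1.07 to 3.38) and Ptgs1 5.38 times (2.44 to 11.3) as high in the large tumor. Both clusters met 5 of 6 of these markers, which summed to 24152 CPM in the medium and 13058 CPM in the large tumor. The part of this difference was not tested. Ptgs1 in the large one rested on 12 UMIs in 12 cells. In cycling epithelial-like cells Slco2a1 had 25 UMIs in the medium and 0 in the large tumor, a ratio of at most 0.906, while the Slco2a1 ratio was 2.06 (0.512 to 6.15) in the clusters with gastric pit markers and 1.46 (0.564 to 3.42) in those with mesenchymal markers, intervals that held 1. The Ptgs2 ratio in cycling epithelial-like cells was 1.57 (0.986 to 2.43). Ptgis in fibroblast-like cells (1.25, 0.789 to 1.93) and Slco2a1 in endothelial-like cells (1.24, 0.484 to 2.67) differed by less than their counting error.

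**Figure D4:**
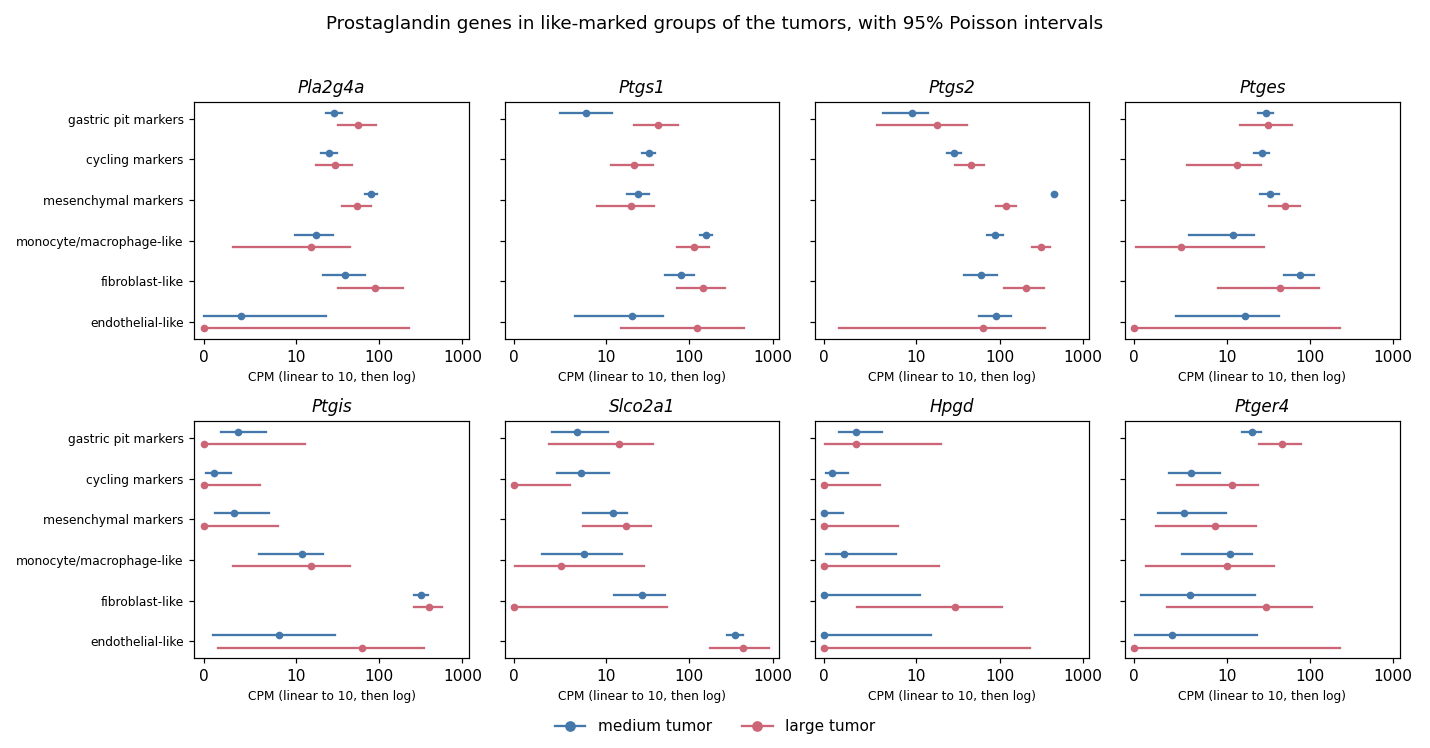
Level of the 8 genes in 6 groups of cells with like markers, as CPM on an axis that is linear up to 10 and logarithmic above. Points are summed UMIs of the medium (blue) and large (red) tumor and lines 95% Poisson intervals. The Ptgs2 intervals of the tumors lie apart in the mesenchymal-marker, monocyte/macrophage-like and fibroblast-like groups, and those of Ptgis overlap in fibroblast-like cells.

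Of 45 further symbols listed for the pathway, 44 were in the tables. Among the 8 other receptors, Ptger3, which binds prostaglandin E2, was the one with more than 50 UMIs in the medium tumor, at 160 CPM (120 to 209) in fibroblast-like cells against 5.09 CPM in epithelial-like cells and 1.08 CPM in monocyte/macrophage-like cells. Ptger2 had 21 UMIs, 9 of them in fibroblast-like cells (27.1 CPM), Tbxa2r, the thromboxane receptor, had 12, of which 5 were endothelial-like (20.5 CPM), and Ptger1 had 11, Ptgir, the prostacyclin receptor, had 9 with 6 in monocyte/macrophage-like cells (6.51 CPM), and Ptgfr had 4. Ptgdr and Ptgdr2, receptors of prostaglandin D2, had 0 UMIs in both tumors. In the large tumor Ptger3 had 6 UMIs, 5 of them fibroblast-like (73.4 CPM, 23.8 to 171), and Ptger1, Ptger2 and Tbxa2r 1 each.

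Of the 21 other pathway genes with at least 50 UMIs in the medium tumor, 16 were over 4 times apart between their highest and lowest class, zeros counted as such, beside 54.0% of all genes with at least 50 UMIs. The classes here are the 4 named ones and the unnamed clusters 10 and 11. The remaining 5 of the 21 were Pla2g12a (2.78 times), Ptges2 (2.57), Akr1b3 (1.92), Lta4h (1.91) and Ptges3 (1.33). Thromboxane synthase Tbxas1 stood at 126 CPM in monocyte/macrophage-like against 2.55 CPM in epithelial-like cells. Of the 11 listed genes of the leukotriene and lipoxygenase branch, 3 of the 4 with at least 50 UMIs were highest there too, the 5-lipoxygenase activating protein Alox5ap at 689 against 10.4 CPM, leukotriene C4 synthase Ltc4s at 256 against 6.14 CPM and the lipoxygenase Alox15 at 197 against 2.44 CPM. The other one, leukotriene A4 hydrolase Lta4h, had 393 UMIs and was highest in endothelial-like cells at 24.6 CPM, with 19.5 CPM in epithelial-like cells. In the large tumor Alox5ap stood at 775 CPM in monocyte/macrophage-like cells. The phospholipase gene Pla2g15 at 28.2 against 5.20 CPM and the prostamide synthase gene Fam213b at 43.4 against 12.4 CPM were also highest in monocyte/macrophage-like cells. Mgll, which releases arachidonate from an endocannabinoid, had 90.3 CPM in endothelial-like cells, 45.2 in fibroblast-like and 0.609 in epithelial-like cells.
Epithelial-like cells were the highest class for 5 of the 21 other pathway genes with at least 50 UMIs, beside 18.2% of all genes. Those past 4 times another class were the carbonyl reductase Cbr1 at 107 against 24.9 CPM in monocyte/macrophage-like cells, the prostaglandin reductase Ptgr1 at 122 against 20.7 CPM in cluster 10, the efflux pump Abcc4 at 34.4 against 2.59 CPM there, and the secreted phospholipase Pla2g2f at 6.14 against 1.08 CPM in monocyte/macrophage-like cells. Ptgr2 was highest in cluster 11 at 25.6 CPM, with 18.4 in epithelial-like cells and 6.02 in fibroblast-like cells, and Zadh2 was highest there too, at 17.1 CPM, with 13.3 CPM in epithelial-like cells. Pla2g6 at 16.4 CPM in endothelial-like cells, with 0 UMIs in monocyte/macrophage-like cells, and Ptgds at 10.3 CPM in cluster 10 rested on 4 UMIs each.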

How the data were processed

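The deposited tables hold raw UMI counts per gene and cell, 1 table per tumor, which the authors made with Cell Ranger on mm10, per the submitters' processing notes; its version and the rule that kept barcodes were not given in the sources used here. Tables were matched to tumors by library name. Each tumor was clustered on its own with Seurat 5.3.0 (R 4.3.3): log normalization to 10000, 2000 variable genes less all pathway genes, 10 principal components, resolution 0.8. No cell was removed. Scrublet (scanpy 1.11.5) called 0 cells of the medium and 9 (0.587%) of the large tumor as doublets, so for the medium tumor it cannot be said to have worked, and instead the 5% of cells with the highest scores were left out as an alternative. A cluster was named when at least 3 markers of a class were seen in at least 10% of its cells at 25% or more of the highest cluster's level, and left unnamed when a rival class had 60% of its markers; these thresholds were set after marker values were known. The fold for counts was 2, among genes with at least 200 UMIs, with 1 UMI added to each sum. Ratios carry exact conditional binomial 95% intervals. TMM factors came from edgeR 4.0.16. Steps were tested on simulated data.

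The members, gene lists and rules were chosen with earlier results of these data known. Further pathway genes were named where they had at least 50 UMIs and their highest class was over 4 times another class of at least 30 cells, with all receptors detected. Like genes are the 3 of highest r for members with at least 100 UMIs, and a selection of these is printed. The genes that lead a cluster are those with the highest ratio of CPM, 10 added, against the rest of the tumor, seen in at least 25% of its cells. A further allele of the strain is not reported here.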

Additional observations from a re-analysis of the deposited data

How the results depend on the processing

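No paired analysis was possible because each table pools the 4 technical replicates of its tumor. Between epithelial-like and all other cells, the count of members over 2 times higher was 0 under each alternative run, and that of members lower was 2 or 3, with 3 at resolution 1.2, cell by cell, with no filter and without cluster 8. Between epithelial-like clusters of the medium tumor the count went from 6 to 3 at 10-fold, and to 2 at 10-fold without cluster 8; in the large tumor it was 0 at 200 UMIs, 5 at 20 UMIs and 7 with no filter. Of members lower in epithelial-like cells of the large tumor, the count of 2 became 1 at resolution 0.4 or 1.2, with 20 principal components, with pathway genes kept in the clustering, with classes set cell by cell, without cluster 8 of the medium tumor, with cluster 1 of the large tumor added and without its clusters 4 and 8, with Ptgs2 the member lost (log2 ratio -0.388 at resolution 0.4, -0.400 with 20 components, -0.408 with pathway genes kept, -0.351 cell by cell), 1 without cluster 6 of the medium tumor, with Slco2a1 lost, and 0 at 4-fold; the count of 1 higher became 2 with no filter. Directions turned for log2 ratios of epithelial-like to other cells of Slco2a1 (0.0525 at resolution 1.2, 0.0104 cell by cell) and Pla2g4a (-0.99 at resolution 1.2). They turned for large to medium ratios of Ptges (0.035 at resolution 0.4, 0.035 with 20 components, 0.038 with pathway genes kept, 0.049 cell by cell, 0.035 with cluster 1 of the large tumor) and of Ptgs2 (0.39 at resolution 1.2, 0.39 without cluster 8 of the medium tumor). Other causes were not tested. The alternatives that leave out or add clusters, drop the highest cells or those with granulocyte markers, or use 10-fold or 20 UMIs were chosen after seeing the data. Of the values of single genes, 188 were counted as the same, 32 as moved and 10 as turned. The 188 kept their direction, but not all kept their size. Among them, the log2 ratio of Pla2g4a in epithelial-like to other cells of the medium tumor was 0.398 in the main run. It was 0.0606 with classes set cell by cell and 0.0984 without cluster 8. Few counts limit the large tumor. Its 11 endothelial-like cells held 15978 UMIs in sum, so their 3-count limit was 188 CPM. There 4 of the 8 members (Ptges, Hpgd, Pla2g4a and Ptger4) had 0 UMIs.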
